A study of Mus musculus with 54 samples.

Results

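Gata4, Gata5 and Gata6 encode the zinc-finger transcription factors of the GATA family that act in the heart. The chromatin around these 3 genes was followed in cultures of 129/Ola mouse stem cells that were led toward heart muscle. Enriched regions of ChIP-seq, lists of places where an antibody brought down more DNA than background, were taken from 3 windows of the mm9 genome: chr14:63805000-63905000 for Gata4, chr2:180050000-180090000 for Gata5 and chr18:11035000-11105000 for Gata6. Every region that shared at least 1 base with a window was a member, which gave 1034 of the 1590704 regions on chromosomes 1 to 19 and X, with 501 at Gata4, 168 at Gata5 and 365 at Gata6. The windows were chosen by the measured calls, lengths and peak heights of these same libraries, so all levels and differences between stages are given as descriptions with no test.

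Libraries came from 4 stages: embryonic stem cells at day 0 (ESC), mesoderm at day 4 (MES), cardiac precursors at day 5.3 (CP) and cardiomyocytes at day 10 (CM). Stem cells were aggregated into embryoid bodies, given VEGF, Activin A and BMP4, and later cultured in StemPro-34 medium with VEGF, bFGF and FGF10. There is no genetic change or untreated arm in any group, and the labels record no sorting of cells, so each library is a mixture in which a region in few cells and a weak region in many cells cannot be told apart. The antibodies recognised H3K27me3, the mark of Polycomb repression, H3K4me3, found at promoters, H3K27ac, found at active promoters and enhancers, H3K4me1, found at enhancers and beside promoters, and RNA polymerase II with phosphate on Ser5 of its tail repeat (RNAPII Ser5P), a form found early in transcription.

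H3K4me1 had 3 libraries at each stage, and H3K4me3 and H3K27ac had 2. H3K27me3 had 2 libraries in ESC, numbered 2 and 3, and 3 at each later stage, while RNAPII Ser5P had 1 in ESC, numbered 2, and 2 at each later stage. The 46 lists held 2929 to 96999 regions, each with its own minimum peak height between 9 and 39, and no depth is given for any library. The shortest H3K27me3 lists were ESC replicate 3 with 3252 regions and CM replicate 3 with 2929, against 9373 to 38392 in the other H3K27me3 lists. The RNAPII Ser5P lists were shortest in CM, with 11332 and 12805 regions. They held 28638 and 22641 in CP, 21031 and 37721 in MES and 48837 in ESC. The RNAPII Ser5P lists numbered 1 had minimum heights of 9, 10 and 13, below the 22 to 28 of those numbered 2, and the labels state that the polymerase ChIP used other sonication and wash buffers than the histone ChIP. For H3K27ac in CM, 1 label of both libraries gives stem cells as the cell type, whereas title, source and day give CM. They are used as CM, and without them no H3K27ac value exists for that stage.

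GATA factors bind the sequence GATA in enhancers and promoters and work together with other cardiac factors such as NKX2-5 and TBX5. In mice, GATA4 is needed for the heart tube to form at the ventral midline, GATA6 for the extraembryonic endoderm and, with GATA4, for the first heart muscle cells, and GATA5 for a normal aortic valve. All 3 are also expressed in endoderm, so their chromatin in an unsorted culture is not a measure of heart cells alone. Genes for such developmental regulators often carry H3K27me3 and H3K4me3 together in stem cells, a state called bivalent.

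A sequence was at hand for the Gata5 promoter only. It is shown because Polycomb marks in stem cells are found mostly at promoters rich in CG dinucleotides. RefSeq places the 250 bases before the Gata5 start at chr2:180334680-180334929 of GRCm38.p6, on the minus strand. Positions of that build were not carried to mm9, so the promoter was not placed among the regions below. With each CG in capitals it reads:

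Gata5 promoter: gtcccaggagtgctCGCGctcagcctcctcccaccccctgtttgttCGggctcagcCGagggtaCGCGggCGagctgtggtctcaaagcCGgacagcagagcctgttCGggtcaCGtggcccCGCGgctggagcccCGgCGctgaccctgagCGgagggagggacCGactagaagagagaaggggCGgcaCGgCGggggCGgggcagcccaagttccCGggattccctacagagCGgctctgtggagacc

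These 250 bases held 22 CG dinucleotides, against a median of 6 in the same stretch of 32851 mouse promoters, and 85.2% of those promoters had fewer. G and C made up 70% of the bases. The letters GATA were on neither strand, whereas 53.6% of all promoters held them on either strand. The longer form GATAA, which contains them, was in 22.6% of promoters and not in this one. With an A before it, as AGATAA, the share of promoters was 9.99%, and with a T before it, as TGATAA, it was 7.94%, and neither was in this one.

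Each window held 1 stretch with H3K4me3 in all 8 H3K4me3 libraries that was longer than any other such stretch in it, and this core served as the reference point for distances. The joined H3K4me3 region around it was chr14:63857151-63868300 at Gata4, chr2:180062951-180072950 at Gata5 and chr18:11047876-11059900 at Gata6. The core of Gata4 was chr14:63863451-63865025 (1575 bases), that of Gata5 chr2:180068426-180069750 (1325 bases) and that of Gata6 chr18:11052051-11053350 (1300 bases). Distances are in kb from its centre, negative toward lower coordinates. The RefSeq annotation of GRCm38.p6 lists Neil2 before and Gm4151 after Gata4, Gm29943 before and Gata5os after Gata5, and Gata6os before and Gm35918 after Gata6. No annotation of mm9 was used, so regions in a window are not assigned to one of these genes.

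A mark was counted at a stage where every library of that stage had a region in the window. This held for 44 of the 60 combinations of gene, target and stage. A region of any length was enough. No share of genome tiles called by the same rule is given here, so these counts describe the windows alone. In 8 combinations no library had a region and in 8 only some had one. Gata4 had 18 of its 20 combinations called in every library and none without a region, Gata6 had 15 called and 2 without, and Gata5 had 11 called and 6 without. Gata5 was thus the window with most empty combinations, and it is also the shortest window, at 40 kb against 100 and 70 kb. H3K4me3 was the target with a region in every library of every stage at all 3 genes.

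**Figure D1:**
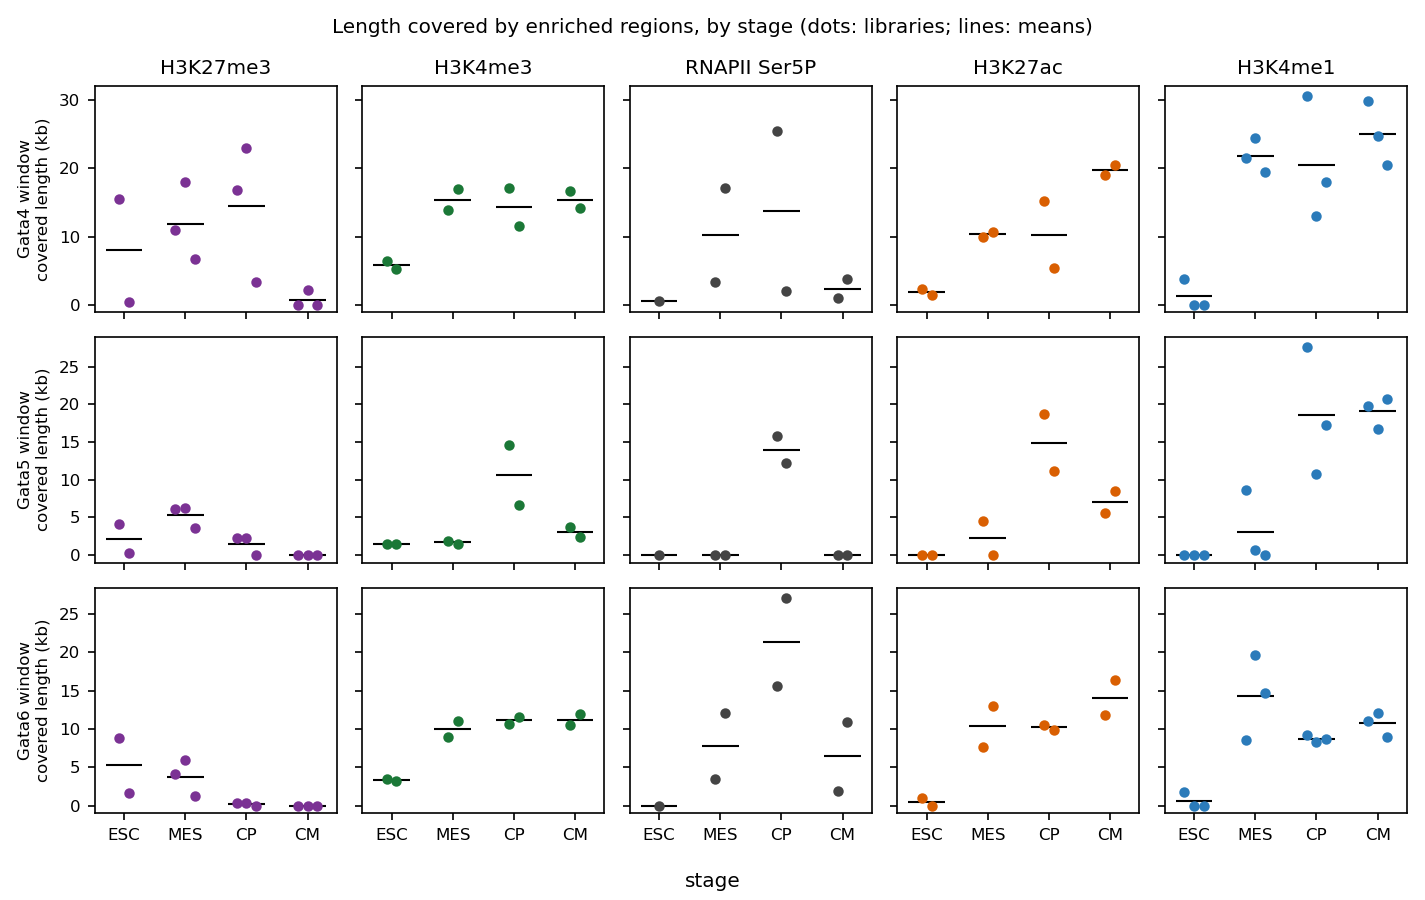
Length in kb of each window covered by enriched regions (y axis) at the 4 stages (x axis), with genes in rows and targets in columns; each dot is a library and each line the mean of a stage. At Gata5 the RNAPII Ser5P values are 15.8 and 12.2 kb in CP and 0 in the libraries of the other stages, and H3K27me3 is at 0 in the 3 CM libraries of Gata5 and of Gata6.

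At Gata6, H3K27me3 was largely gone by CP, the earliest of the 3 genes. It covered 8.83 and 1.68 kb of the window in ESC replicates 2 and 3, and 4.18, 5.98 and 1.25 kb in the 3 MES libraries. In CP it covered 0.3, 0.3 and 0 kb, and in CM 0 kb in all 3 libraries. The ESC and CM values did not overlap, and the CM mean of 0 kb (n = 3) differed from the ESC mean of 5.25 ± 5.06 kb (SD, n = 2) by -5.25 kb, close to the ESC spread. The difference was -8.83 kb without replicate 3 and -1.68 kb without replicate 2. The CM list with the most regions, replicate 1 with 20484, was among those with none at Gata6.

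H3K27me3 left the Gata6 core before it left the window. The core was covered to 50% and 17.3% in the ESC libraries, to 11.5%, 0% and 0% in MES, and to 0% in the 6 later libraries. In MES the remaining H3K27me3 lay on both sides, between -6.2 and 3.18 kb from the core. A joined region, built by merging overlapping H3K27me3 regions of all libraries, at chr18:11052701-11056900 (0 to 4.2 kb) was in both ESC libraries, all 3 MES libraries and none of CP or CM. Of the H3K27me3 left in MES, 92.8%, 83.7% and 64% lay on bases that carried H3K27ac in both CM libraries.

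H3K4me3 at Gata6 widened from a narrow peak to a broad domain. The region at the core was 1.43 and 1.3 kb long in ESC, 4.68 and 6.6 kb in MES, 8.7 and 11.6 kb in CP, and 8.65 and 11.9 kb in CM. The MES, CP and CM values were all above both ESC values, CP was above MES, and CP and CM overlapped. In ESC the region was longer than 82.7% and 66.1% of all regions in its library, and in CP and CM longer than at least 99.97%. Such breadth is a known feature of H3K4me3 at genes that set cell identity. Its peak was higher than 67.2% and 52.9% of the regions in its library in ESC and than 88.3% and 86.9% in CM. Over the whole window H3K4me3 covered 3.38 ± 0.212 kb in ESC and 11.2 ± 1.01 kb in CM (SD, n = 2 each), a difference of 7.84 kb.

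RNAPII Ser5P and H3K27ac were at the Gata6 core in every library from MES on. No RNAPII Ser5P region was in the window in the single ESC library. It covered 3.5 and 12.1 kb in MES, 15.6 and 27.03 kb in CP, and 1.93 and 10.95 kb in CM. The CP values were above all others, while MES and CM overlapped. The CM lists were also the shortest of this target, and whether that bears on the lower CM values was not tested. Most of the CP signal lay above the core, with 14.0 and 23.0 kb on that side against 1.63 and 4.0 kb below its centre. The CM mean was 6.44 kb above the ESC value, or 10.95 kb without replicate 1.

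H3K27ac at Gata6 covered 0.95 and 0 kb in ESC, 7.7 and 13.1 kb in MES, 10.6 and 9.93 kb in CP, and 11.8 and 16.4 kb in CM. The 6 later libraries were all above the 2 of ESC, and all 6 covered the core to 100%. CM was above CP, and MES overlapped both. The CM mean of 14.1 ± 3.27 kb (SD, n = 2) exceeded that of ESC by 13.6 kb. ESC replicate 1 had 2 H3K27ac regions. One of 0.075 kb covered 5.77% of the core and was higher than 3.19% of the regions in its library, and the other was higher than 26.3%.

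H3K4me1 at Gata6 had its 2 highest values in MES, but the lowest MES library was below all 3 of CM. It covered 1.8, 0 and 0 kb in ESC, 8.58, 19.7 and 14.6 kb in MES, 9.28, 8.33 and 8.65 kb in CP, and 11.1, 12.1 and 8.95 kb in CM. ESC was below every later library, and the MES range overlapped those of CP and CM. None of the 9 later libraries had H3K4me1 on the core itself. The CM mean exceeded the ESC mean by 10.1 kb.

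Regions with H3K4me1 and H3K27ac but no H3K4me3 are commonly taken as active enhancers. Far from the Gata6 core, a joined H3K27ac region at chr18:11095726-11098625 (43.03 to 45.9 kb) was in both MES, both CP and both CM libraries and in no ESC library. A second at chr18:11077451-11078975 (24.8 to 26.3 kb) had the same pattern. H3K4me3 was absent from the second in all libraries, and a 0.25 kb H3K4me3 region overlapped the first in 1 MES library. Both sat inside joined H3K4me1 regions, chr18:11095101-11098900 and chr18:11076001-11079075, that were in all 9 libraries after ESC and in none of ESC. A further place had joined regions at CM alone, H3K4me1 at chr18:11069451-11071750 in 3 libraries and H3K27ac at chr18:11069851-11070150 in 2. With touching regions also merged, the CM stretch of H3K4me1 was chr18:11069451-11072400. That longer stretch overlapped an MES stretch of H3K4me1 at chr18:11072101-11073025, so for H3K4me1 the restriction to CM depends on the joining rule.

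**Figure D2:**
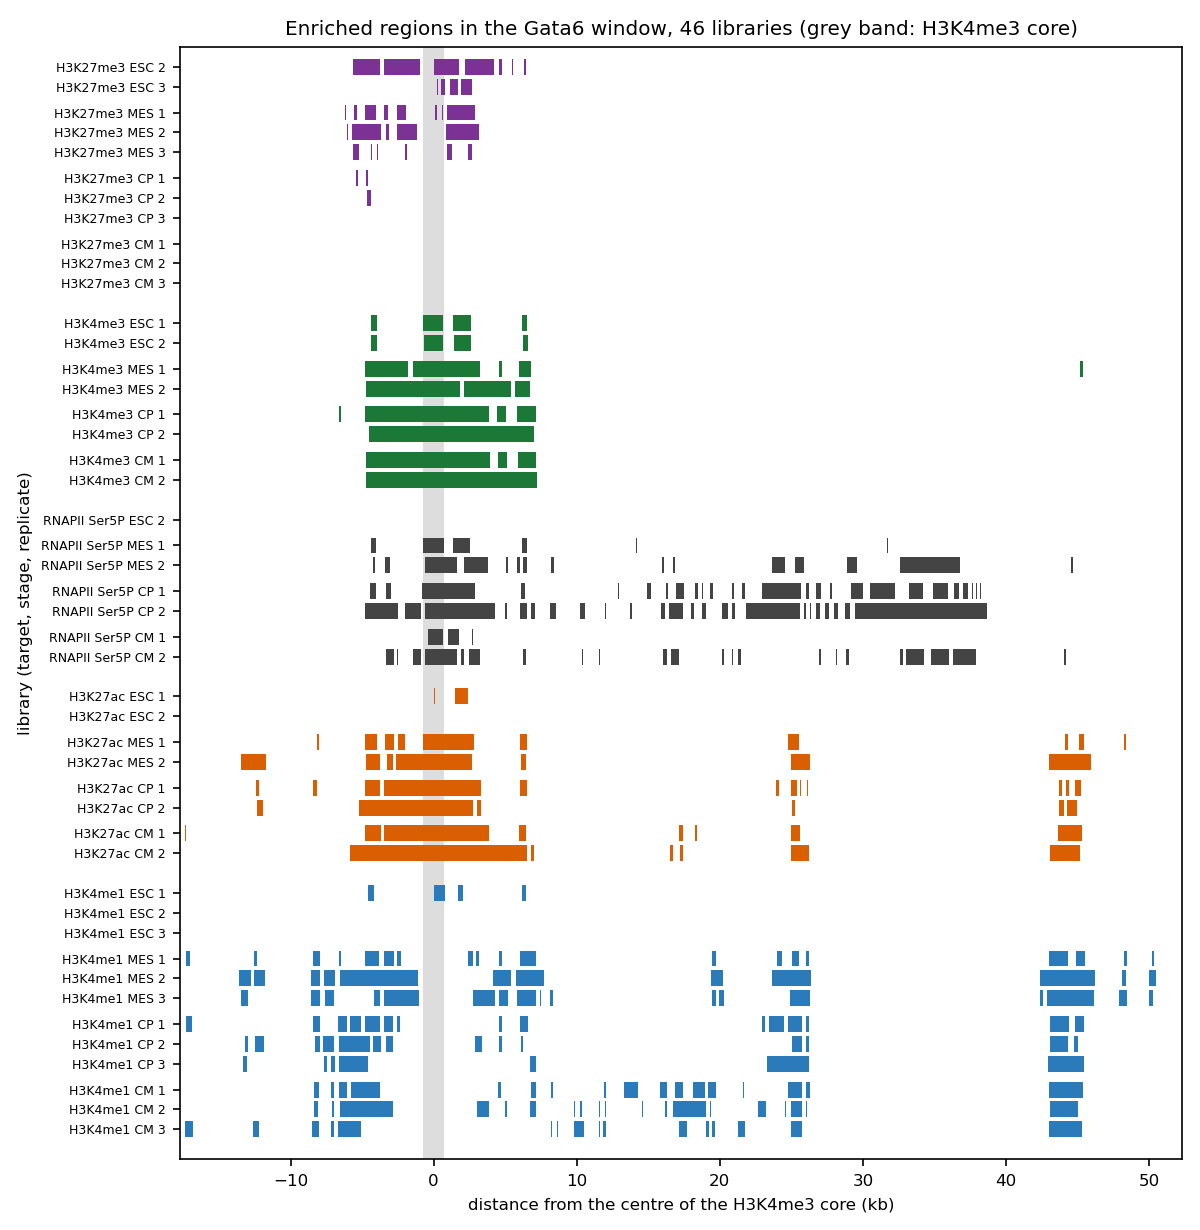
Enriched regions in the Gata6 window for 46 libraries (rows, by target, stage and replicate), against distance in kb from the centre of the H3K4me3 core (x axis, core as a grey band); each bar is a region. H3K27me3 is on both sides of the core in ESC replicate 2 and in MES, above its centre alone in ESC replicate 3, and at 0.3 kb or less in CP, and H3K4me1 and H3K27ac stand at 43.03 to 45.9 kb from MES on.

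At Gata4, regions of active marks and of H3K27me3 were both in the window through CP. H3K27me3 covered 15.5 and 0.425 kb in ESC replicates 2 and 3, 10.9, 18.0 and 6.78 kb in MES, and 16.9, 23.0 and 3.35 kb in CP. In CM it covered 0, 2.13 and 0 kb. MES and CP overlapped, and the CM value of replicate 2 was above the lowest ESC value, so ESC and CM were not apart. The mean was 7.98 ± 10.7 kb in ESC (SD, n = 2) and 0.708 ± 1.23 kb in CM (SD, n = 3), a difference of -7.27 kb that was smaller than the ESC spread. It was -14.5 kb without replicate 3, the short lists of ESC and CM, and -0.425 kb without replicate 2.

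The place of H3K27me3 at Gata4 also differed between stages, though the values of ESC replicate 3 rest on 0.425 kb. The core was covered to 100% and 12.7% in ESC, to 3.17%, 0% and 0% in MES, to 36.5%, 23.8% and 0% in CP, and to 0% in CM. The length-weighted centre of H3K27me3 stood at 4.89 and 1.21 kb in ESC, and at 13.8, 13.5 and 12.5 kb in MES. In CP the centre was at 12.1, 12.7 and 10.7 kb, and in the CM library that had any, at 20.1 kb. All 7 libraries after ESC with H3K27me3 had their centre farther above the core than both ESC libraries. In ESC too most H3K27me3 lay above the core centre, 10.3 and 0.375 kb against 5.19 and 0.05 kb below it. In ESC 64.3% and 100% of the H3K27me3 lay on bases acetylated at H3K27 in both CM libraries, and in MES 29.4%, 18.9% and 14.0%. The share was 35.8%, 28.7% and 14.2% in CP. In the CM library that had any it was 38.8%, above every MES value.

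The joined H3K27me3 regions lost at Gata4 were 2, one over the core and one beside it. H3K27me3 at chr14:63862451-63865800 (-1.79 to 1.56 kb), which holds the core, was in both ESC libraries, in 2 of 3 in MES, in 2 of 3 in CP and in none of 3 in CM. In MES replicate 1 its region on the core was 0.05 kb long, at the minimum height of the list. The region beside the core, at chr14:63858201-63860675 (-6.04 to -3.56 kb), was in both ESC libraries, none in MES, 2 in CP and none in CM.

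H3K4me3 at the Gata4 core was widest in an MES library. The region at the core was 2.03 and 1.6 kb long in ESC, 5.1 and 11.1 kb in MES, 5.43 and 5.88 kb in CP, and 5.38 and 6.85 kb in CM. The later libraries were all above ESC and the 3 later stages overlapped. The MES value of 11.1 kb comes from replicate 2, where the core region and its neighbour at lower coordinates were called as one. Over the window H3K4me3 covered 5.83 ± 0.813 kb in ESC and 15.4 ± 1.73 kb in CM (SD, n = 2 each), a difference of 9.58 kb.

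H3K27ac at Gata4 was at its widest in CM. It covered 2.33 and 1.4 kb in ESC, 9.93 and 10.7 kb in MES, 15.3 and 5.33 kb in CP, and 19.03 and 20.5 kb in CM. The CM libraries were above all others, MES was above ESC, and CP spanned the MES values. The difference between CM and ESC was 17.9 kb. In ESC most of it was a region far below the core, near -51 kb, where H3K4me3 was present in all 8 libraries (chr14:63811701-63813300, singled out after its values were seen) and where the only RNAPII Ser5P region of the ESC library in this window, 0.625 kb long, also lay.

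RNAPII Ser5P was at the Gata4 core in all 6 libraries after ESC and absent from it in the single ESC library. The region at the core was 1.6 and 3.9 kb long in MES, 4.05 and 1.83 kb in CP, and 0.625 and 1.93 kb in CM, in each stage as replicates 1 and 2. These lengths overlapped between stages. The whole window gave 3.38 and 17.1 kb in MES, 25.5 and 2.08 kb in CP, and 0.975 and 3.75 kb in CM, and the high values of MES replicate 2 and CP replicate 1 came with 13.9 and 22.4 kb below the core centre, much of it near the place at -51 kb. The CM mean exceeded the ESC value by 1.74 kb, or by 3.13 kb without replicate 1.

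H3K4me1 at Gata4 covered 3.73, 0 and 0 kb in ESC, 21.5, 24.4 and 19.5 kb in MES, 30.6, 13.0 and 18.1 kb in CP, and 30.0, 24.8 and 20.6 kb in CM. All 9 later libraries were above ESC and the later stages overlapped. The CM mean exceeded that of ESC by 23.8 kb. The joined region at chr14:63880776-63885950 (16.5 to 21.7 kb) was in all 9 later libraries and in no ESC library. Those at chr14:63848876-63854175 (-15.4 to -10.1 kb) and chr14:63825276-63829900 (-39.0 to -34.3 kb) were in all 3 CM libraries, the first in 2 of 3 and the second in 1 of 3 in MES, and both in 2 of 3 in CP.

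Away from the Gata4 core, some places were acetylated at CM alone. The joined H3K27ac region at chr14:63840476-63842775 (-23.8 to -21.5 kb) was in both CM libraries and in none of the 6 earlier ones, and H3K4me1 at the same place was in the 3 CM libraries alone. A smaller one at chr14:63891951-63892525 (27.7 to 28.3 kb) was likewise in CM alone. The one at chr14:63886226-63891725 (21.99 to 27.5 kb) was in both MES, 1 CP and both CM libraries. It overlaps a joined H3K4me3 region at chr14:63886126-63890725, as does the CM stretch of H3K4me1 that runs into the smaller one, chr14:63889176-63892400, so neither is free of H3K4me3. That H3K4me3 region was in 1 ESC and in both MES, both CP and both CM libraries.

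**Figure D3:**
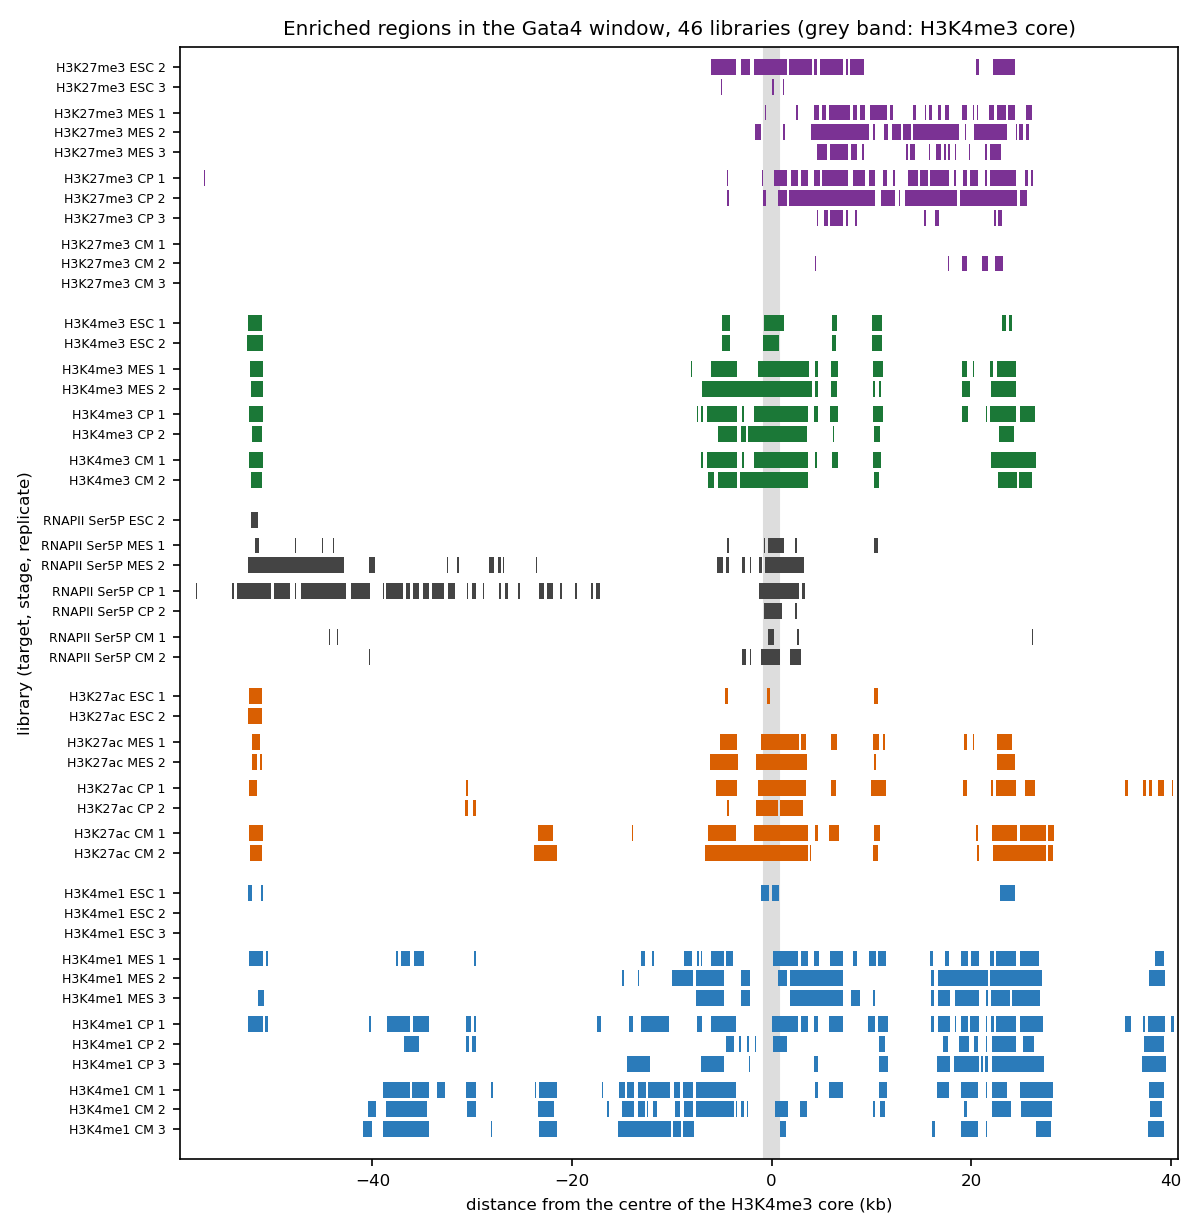
Enriched regions in the Gata4 window for 46 libraries (rows, by target, stage and replicate), against distance in kb from the centre of the H3K4me3 core (x axis, core as a grey band); each bar is a region. H3K27me3 spans the core in ESC replicate 2 and lies mostly above it in MES and CP, with centres at 10.7 to 13.8 kb, and H3K27ac at -23.8 to -21.5 kb is in the 2 CM libraries alone.

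Gata5 was the last of the 3 to acquire active marks, and most of them were wider in CP than in CM. In ESC it had H3K4me3 and H3K27me3 regions, and no library had H3K27ac, H3K4me1 or RNAPII Ser5P in the window. RNAPII Ser5P covered 15.8 and 12.2 kb in CP and 0 kb in the single ESC, the 2 MES and the 2 CM libraries, so that CM and ESC means differed by 0 kb. In CP its regions lay mostly below the core, with 11.3 and 10.5 kb on that side against 4.51 and 1.69 kb above. The region on the core was higher than 95.3% and 90.6% of the regions in its library. The 2 RNAPII Ser5P lists of CM, without a region here, were the shortest of that target.

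H3K27ac at Gata5 was also widest in CP but, unlike RNAPII Ser5P, was still present in both CM libraries. It covered 0 kb in both ESC libraries, 4.45 and 0 kb in MES, 18.7 and 11.1 kb in CP, and 5.6 and 8.45 kb in CM. The CP values were above all others, and CM was above ESC and MES. In CP the longest acetylated region was longer than 99.997% and 99.95% of the regions in its library, and in CM longer than 88.3% and 94.7%. The CM mean of 7.02 ± 2.02 kb (SD, n = 2) was 7.02 kb above ESC.

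H3K4me3 at Gata5 stayed narrow except in CP. The region at the core was 1.45 and 1.45 kb long in ESC, 1.9 and 1.48 kb in MES, 10.0 and 5.28 kb in CP, and 1.6 and 2.15 kb in CM. CP stood above all others, and the CM values overlapped those of MES. In CP replicate 1 it was longer than 99.99% of the regions in its library and in replicate 2 longer than 99.6%. Over the window CM covered 3.06 ± 0.866 kb (SD, n = 2) against 1.45 kb in both ESC libraries, a difference of 1.61 kb that was 1.0 kb without replicate 1. The joined region at chr2:180073251-180074925 (4.16 to 5.84 kb) was in both CP and both CM libraries and in no earlier one.

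H3K27me3 at Gata5 stayed on the core as long as it was present. It covered 4.1 and 0.25 kb of the window in ESC replicates 2 and 3, 6.05, 6.28 and 3.53 kb in MES, 2.28, 2.2 and 0 kb in CP, and 0 kb in all 3 CM libraries. MES values overlapped ESC, and CM was below every library that had any. The core was covered to 100% and 11.3% in ESC, 100%, 100% and 98.1% in MES, and 100%, 92.5% and 0% in CP. The joined region at chr2:180065926-180071725 (-3.16 to 2.64 kb) was in 2 of 2 ESC, 3 of 3 MES, 2 of 3 CP and none of 3 CM libraries. The difference between CM and ESC was -2.17 kb, within the ESC spread of 2.72 kb (SD, n = 2), and was -4.1 kb without replicate 3 and -0.25 kb without replicate 2.

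H3K4me1 differed from the other active marks at Gata5 in being as wide in CM as in CP. It covered 0 kb in the 3 ESC libraries, 8.65, 0.6 and 0 kb in MES, 27.6, 10.7 and 17.3 kb in CP, and 19.8, 16.7 and 20.6 kb in CM. CP and CM were above all of MES and ESC and overlapped each other. The CM mean exceeded the ESC mean by 19.1 kb. The longest of its joined regions, chr2:180068301-180079750 (-0.787 to 10.7 kb), was in 2 MES, 3 CP and 3 CM libraries. Those at chr2:180055726-180064075 and chr2:180087176-180095025, the second of which runs past the end of the window, were in 1 MES, 3 CP and 3 CM libraries.

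**Figure D4:**
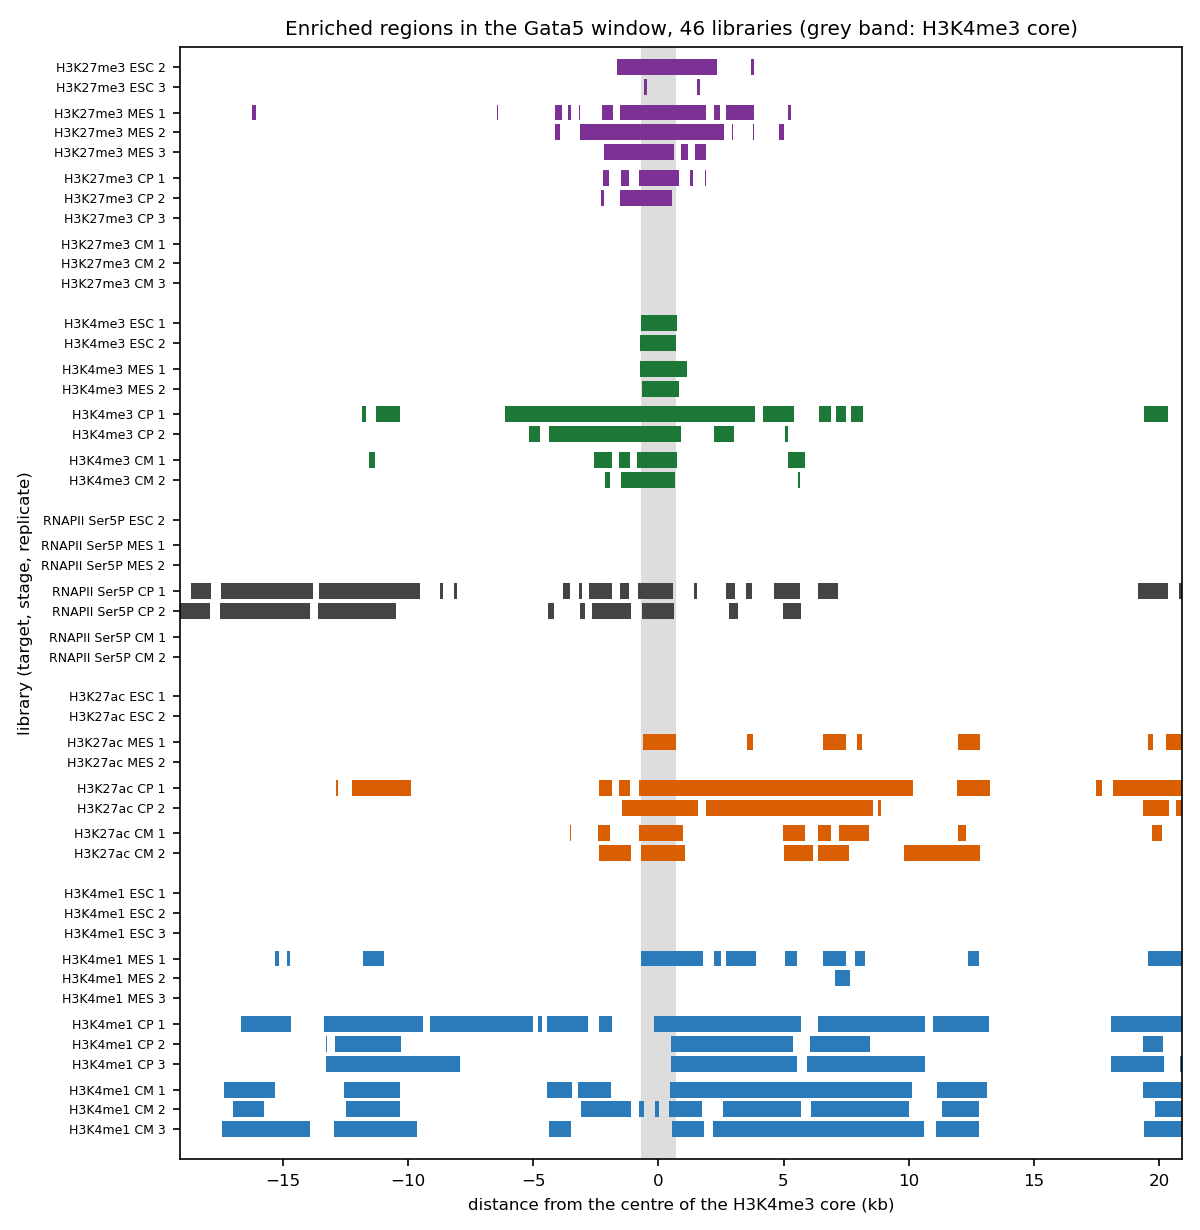
Enriched regions in the Gata5 window for 46 libraries (rows, by target, stage and replicate), against distance in kb from the centre of the H3K4me3 core (x axis, core as a grey band); each bar is a region. RNAPII Ser5P regions are in the 2 CP libraries alone, and H3K27me3 lies over the core in ESC, MES and 2 CP libraries and is absent from the 3 CM lists.

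The 3 genes could be set side by side at the core, where the length of the window plays no part. In ESC all 3 had an H3K4me3 region of 1.3 to 2.03 kb at the core and some H3K27me3 on it in both libraries. In MES the core lay almost wholly inside H3K27me3 at Gata5, with 98.1% to 100%, and hardly at Gata4 and Gata6, with 0% to 3.17% and 0% to 11.5%. In the same stage H3K4me3 at the core was 1.48 and 1.9 kb long at Gata5, against 4.68 to 11.1 kb at the other genes. H3K27ac was on the core in both MES libraries of Gata4 and of Gata6 and in 1 of 2 at Gata5.

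**Figure D5:**
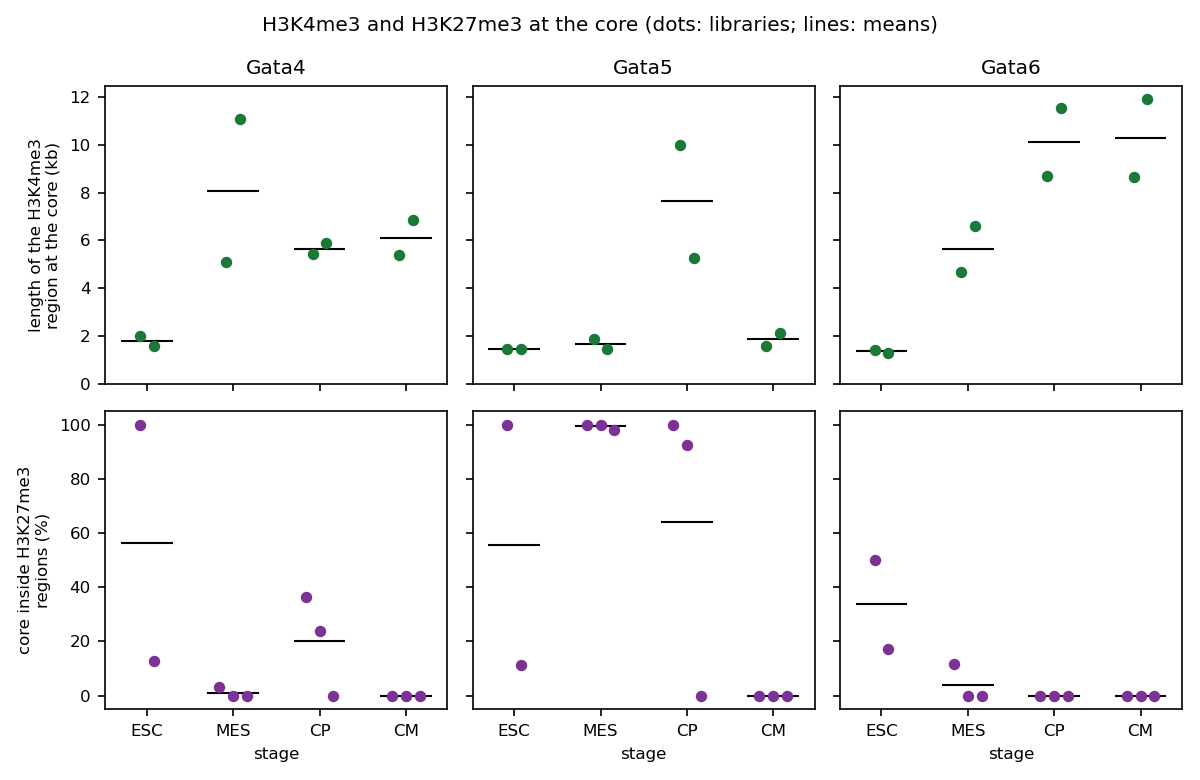
Length in kb of the H3K4me3 region at the core (upper row, y axis) and share in percent of the core inside H3K27me3 regions (lower row, y axis) at the 4 stages (x axis) for each gene; dots are libraries and lines are stage means. In MES the core of Gata5 is inside H3K27me3 to 98.1% to 100% with H3K4me3 of 1.48 and 1.9 kb, while at Gata4 and Gata6 the share is at most 11.5% and H3K4me3 is 4.68 to 11.1 kb long.

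Bivalent bases, with H3K4me3 and H3K27me3 in every library of a stage, were found at each gene in ESC and MES. The marks come from separate libraries of unsorted cells, so such overlap does not show both on the same chromatin. At Gata4 they came to 0.2 kb in ESC, 1.28 kb in MES, 0.4 kb in CP and 0 kb in CM. Gata5 had 0.15, 1.3, 0 and 0 kb in the same order, and Gata6 had 0.95, 0.65, 0 and 0 kb. In MES such bases lay on the core at Gata5 alone. Those of Gata4 in MES and CP, and those of Gata6 in MES, lay outside the core. The ESC values are limited by the short H3K27me3 list of replicate 3. Counted by pairs of an H3K4me3 and an H3K27me3 library, all 4 pairs in ESC and all 6 in MES overlapped at each gene. In CP 6 of 6 pairs overlapped at Gata4 and 4 of 6 at Gata5 and at Gata6, and in CM 2 of 6 at Gata4 and 0 of 6 at the other 2.

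Distal H3K4me1 was most frequent in CM. It means stretches joined over the libraries of a stage and touched by each of them, with no H3K4me3 region of that stage. A library had to touch a stretch, not to cover it. At Gata6 in CM, chr18:11069451-11072400 is 2.95 kb long, with 275 bases in all 3 libraries. No such stretch was found in ESC. In CM Gata4 had 6 such stretches, Gata5 3 and Gata6 6, of which 3, 1 and 3 also had H3K27ac in both libraries. At Gata4 1 of those 3, chr14:63848876-63854175, rests on separate H3K27ac regions of 0.025 kb in each library with no base in common, while the other 2 and those of Gata5 and Gata6 shared 0.125 to 1.525 kb. The 0.125 kb, in chr14:63883176-63884925 of Gata4, is shared by the H3K27ac libraries and starts at 63884801. H3K4me1 common to the 3 CM libraries there is at chr14:63883526-63883775, so no base held both marks in every library. In MES there were 1, 0 and 5 distal stretches, and in CP 2, 0 and 2, in the same order of genes. Gata6 had the only one with H3K27ac in every library in MES, and the only 2 in CP. H3K4me3 in 1 library was enough to set a stretch aside. At Gata5 in CP this held for chr2:180075026-180079750 and chr2:180087176-180090000, each with H3K27ac in both libraries and H3K4me3 in 1. At Gata6 in MES it held for chr18:11095101-11098900, likewise with H3K27ac in both and H3K4me3 in 1.

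The contrast of CM with ESC was set beside all stretches of the genome of the same size. H3K27ac covered more in every CM than in every ESC library at 3 of the 3 genes, as did 18.9% of 100 kb tiles, 17.3% of 40 kb tiles and 18.5% of 70 kb tiles with any H3K27ac, the sizes of the Gata4, Gata5 and Gata6 windows. H3K4me1 did so at 3 of 3, against 21.1%, 17.7% and 19.9% of tiles. H3K4me3 did so at 3 of 3, against 7.01%, 6.33% and 6.75%. RNAPII Ser5P did so at 2 of 3, all but Gata5, against 7.25%, 6.63% and 6.97%, with a single ESC library. H3K27me3 covered less in every CM than in every ESC library at 2 of 3, all but Gata4, against 2.08%, 1.78% and 1.91%. Since these values helped to choose the genes, nothing is read from the comparison.

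Among tiles with H3K4me3 in every library of a stage, the shares were 0.893% to 1.21% for H3K27me3, 7.75% to 8.15% for H3K4me3, 5.17% to 5.67% for RNAPII Ser5P, 16.7% to 18.6% for H3K27ac and 15.7% to 20.3% for H3K4me1. Joined regions gave a finer count. A joined region was gained when in no ESC and every CM library and lost in the opposite case. Of 66 joined H3K4me1 regions in the windows 19 were gained, against 5.18% of all such regions in the genome, and of 42 of H3K27ac 8 were gained, against 5.26%. Of 26 of H3K4me3 1 was gained, at Gata5, against 1.43%, and of 96 of RNAPII Ser5P 2 were gained, at the cores of Gata4 and Gata6, against 1.04%. Of 27 of H3K27me3 4 were lost, each named above, against 0.339%. Fewer libraries had to agree when a replicate number was left out, and the genome share moved too. For H3K27ac 18 of 25 joined regions were gained without replicate 1, against 31.2% in the genome, and 21 of 44 without replicate 2, against 11.3%. For H3K4me3 it was 3 of 14, against 4.65%, and 9 of 31, against 6.44%. RNAPII Ser5P had 21 of 54 gained without replicate 1, against 6.26%. H3K27me3 had 7 of 45 lost without replicate 2, against 0.798%, and 13 of 27 without replicate 3, against 5.1%. These counts too describe regions chosen with the contrast known.

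Each window was also ranked among the tiles of its size by covered length within each library. For H3K27me3, Gata4 stood above 98.9% and 99.8% of tiles in ESC and above 97.2% to 99.7% in CP, and Gata6 above 99.6% and 99.9% in ESC and above 83.7% and 87.9% in the 2 CP libraries with any. Gata5 stood above 99.2% to 99.4% of tiles in both ESC and MES. For H3K27ac Gata5 stood above 99.96% to 99.99% in CP.

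The tiles most like each gene over all 46 libraries were found by the Spearman correlation of these ranks, which share library and list length among all tiles. Nearest to Gata4 were chr2:133300001-133400000, chr9:103600001-103700000 and chr9:24500001-24600000, with rho of 0.762, 0.759 and 0.738, against a median of -0.0986 over 26395 tiles. Nearest to Gata5 were chr2:93160001-93200000, chr9:58640001-58680000 and chr3:51560001-51600000, with rho of 0.835, 0.817 and 0.787, against a median of -0.0845 over 65973 tiles. Nearest to Gata6 were chr13:53060001-53130000, chr8:47810001-47880000 and chr7:149800001-149870000, with rho of 0.893, 0.852 and 0.833, against a median of 0.0412 over 37703 tiles. None of these tiles overlapped the window of another gene. The windows themselves were not tiles, so likeness between the 3 genes is not given.

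The window edges cut few members. No region crossed an edge at Gata4 or Gata6, and 11 did at Gata5. Within 10 kb outside the windows there were 77 regions in 34 libraries below Gata4 and 3 in 2 libraries above it. The same distance held 7 regions below and 15 above Gata5, and 1 below and 11 above Gata6.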

How the data were processed

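Chromatin from mouse cells at 4 stages was measured by ChIP-seq, with replicates that are biological per the labels. Of 54 labelled libraries, 46 have a list of enriched regions, and 8 of whole cell extract have none and were not analysed here. Reads were aligned with Bowtie to mm9, per the submitters' processing notes. Its version, the peak caller and the caller's settings are not given in the sources used here. The deposited lists give each region's length (unit other, in bases) together with its peak height and totals, which are taken as signal since the authors' scaling is not stated. Heights were compared only as ranks within a library. Starts are printed 1 above the listed start. One list has no header, and its columns were taken to follow the same order.

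The members and lists were chosen with earlier results of these data known. Covered length is that of merged regions inside a window. Joined regions merge those of all libraries of a mark that share at least 1 base. The distal H3K4me1 stretches of a stage also merged regions that touch. Tiles of 100, 40 and 70 kb were laid end to end over chromosomes 1 to 19 and X. Tiles were kept for a share where any library of the mark had a region. Joined regions named are the 3 longest gained and 3 longest lost per gene and mark plus the longest present at all stages, and tiles named are the 3 most alike. The H3K4me3 regions far below and above the Gata4 core were named after their values were seen. So were the H3K4me1 stretches named for the distal count. A further list of cardiac and GATA genes had been planned and was not run, since the annotation at hand is of GRCm38.p6 and positions were not carried between builds. The code that calls gained regions and tiles was checked on simulated lists. No test or p-value is given. Depth is unknown, so no counting interval was computed. Alternatives tried were lists cut to the same number of highest regions, regions under 500 bases left out, windows trimmed by 10% on each side, calls by most libraries of a stage, other joining rules, shifted tiles, the Pearson correlation, and each replicate number left out. Python 3.11.15, numpy 2.4.6, pandas 2.3.3, scipy 1.17.1 and matplotlib 3.10.9 were used.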

Additional observations from a re-analysis of the deposited data

How the results depend on the processing

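The difference in covered length between CM and ESC kept its sign in all 78 recomputed values, or stayed at 0 for RNAPII Ser5P at Gata5. Of these values, 73 moved by no more than the larger replicate SD. The sign could not reverse where every CM value was 0, as for H3K27me3 at Gata5 and Gata6. Nor could it where every ESC value was 0, as for H3K27ac and H3K4me1 at Gata5 and RNAPII Ser5P at Gata6. For H3K27me3 at Gata4 the SD was 10.7 kb, so even the move from -7.27 to -0.425 kb lay within it. With an equal number of top regions H3K4me3 at Gata6 differed by 9.2 kb. Without regions under 500 bases H3K4me1 at Gata6 differed by 8.38 kb. With the trimmed window H3K4me1 at Gata5 differed by 15.8 kb. With each replicate left out, H3K27ac at Gata4 differed by 16.7 to 19.1 kb. H3K27me3 ranged from -14.5 to -0.425 kb at Gata4, from -4.1 to -0.25 kb at Gata5 and from -8.83 to -1.68 kb at Gata6, with the smallest size in each without replicate 2. RNAPII Ser5P without replicate 1 gave 3.13 kb at Gata4 and 10.95 kb at Gata6, and without replicate 2 it has no ESC library and no value. Combinations called in every library numbered 43 to 47 under 5 alternatives.

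Counts of joined regions depended on the libraries required. With regions within 1 kb joined, 8 of H3K4me1 and 0 of H3K4me3 were gained and 2 of H3K27me3 lost. No genome share is given under that rule, so these counts cannot be set beside the shares above. With each replicate left out, gained regions numbered 18 to 21 for H3K27ac and 3 to 9 for H3K4me3. RNAPII Ser5P had 21 gained without replicate 1, and lost H3K27me3 regions numbered 4 to 13. Fewer libraries had to agree in these counts. The joined regions in the windows fell in some cases and rose in others. For H3K27ac they went from 42 to 25 without replicate 1 and to 44 without replicate 2. For H3K27me3 they went from 27 to 45 without replicate 2. With tiles shifted by 50% every background share stayed within 1.5 times its value. By the Pearson correlation the first tiles of Gata4 and Gata5 had r of 0.709 and 0.674 and ranked 30 each, and that of Gata6 had r of 0.936 and ranked 2. The cause of these changes was not tested. No paired analysis was possible because no result comes from a test. Unknown depth limits every absence: a mark missing from a list may lie under that list's own minimum height.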
